A study of Mus musculus with 2 samples.

Results

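The urea cycle enzymes are encoded by Nags, Cps1, Otc, Ass1, Asl and Arg1. They were taken by gene symbol from the deposited table of liver transcripts, and all 6 were found among its 15526 genes. The AAOT library was made from livers of female NOG-TKm30 mice, 22 weeks old, that had received 0.3% AAOT, acetoaceto-o-toluidide, for 4 weeks. AAOT is an amide built on o-toluidine, an aromatic amine. The control library came from female NOG-TKm30 mice of the same age at 0% AAOT. Each library is a pool of 3 mice, so there is 1 library per group, no spread between mice or libraries can be estimated, and no test of the treatment was possible. Mice of both groups carried a mutant herpes simplex virus thymidine kinase (HSVtk mutant clone 30) driven by the mouse transthyretin enhancer and promoter, which is active in hepatocytes. NOG mice lack most lymphocytes, and the labels name C57BL as well as NOG for the background. How AAOT was dosed is not stated in the labels.

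The urea cycle turns toxic ammonia into urea and runs in full only in hepatocytes, above all in those around the portal vein. In mitochondria, N-acetylglutamate from Nags switches on Cps1, which joins ammonia and bicarbonate into carbamoyl phosphate, and Otc couples this to ornithine to give citrulline. In the cytosol, Ass1 and Asl turn citrulline and aspartate into arginine and fumarate, and Arg1 splits arginine into urea and ornithine. A failure of the cycle leads to hyperammonaemia.

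The 6 transcripts differed little between the pools, and they did not all lie on the same side. Asl, Cps1 and Arg1 were higher in the AAOT pool, by 1.37-fold, 1.196-fold and 1.16-fold, Ass1 was at 1.04-fold, Otc was close to equality and Nags was 1.101-fold lower. Levels are in CPM, read counts of a gene as scaled by the authors for each library. The deposited values sum to 987690 CPM in the AAOT pool and 1.012e+06 CPM in the control pool. The scale is thus not the read total alone, and folds in CPM differ somewhat from folds in shares of reads. None of the 6 members (0 of 6) was 2-fold higher or lower, against 1.2% of the 7761 genes with a mean of at least 10 CPM. Together the 6 transcripts took 0.822% of the reads in the AAOT pool and 0.690% in the control pool. Their summed level was 8120.3 CPM in the AAOT pool and 6989 CPM in the control pool, 1.16-fold higher with AAOT. The exact 95% counting interval of this fold is 1.15 to 1.17. Intervals here and below cover counting error only, and a p-value was not computed for any gene.

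**Figure D1:**
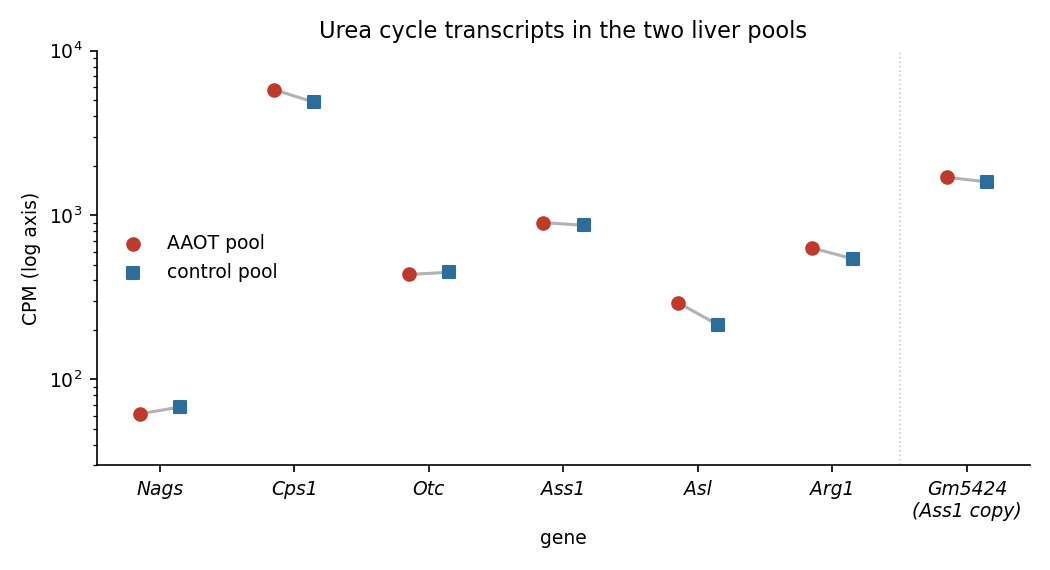
Level of each urea cycle transcript in the AAOT pool (red circles) and the control pool (blue squares), in CPM on a log axis, with the Ass1 pseudogene copy Gm5424 at the right. Each point is 1 library of pooled liver RNA, and the step between the points of a gene is largest for Asl, at 293 CPM in the AAOT pool and 215 CPM in the control pool.

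Among the mitochondrial members, Cps1 (chromosome 1, 67123026 to 67231259, plus strand, 38 exons; positions are those of GENCODE M21 on GRCm38) was by far the most abundant. It is the entry enzyme of the cycle and one of the most plentiful mitochondrial proteins of the liver. Cps1 was at 5799.5 CPM in the AAOT pool and 4848 CPM in the control pool, which placed it at rank 15 of all genes by mean level. It was 1.196-fold higher in the AAOT pool (95% counting interval 1.19 to 1.21). Cps1 made up 71.4% of the CPM of the 6 members in the AAOT pool and 69.4% in the control pool, so the sum over the members is largely that of Cps1. Without Cps1, the other 5 members summed to 2321 CPM in the AAOT pool and 2140.4 CPM in the control pool, 1.08-fold higher (1.07 to 1.0996).

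Otc, the next mitochondrial step (chromosome X, 10252305 to 10321024, plus strand, 10 exons), is the gene of the commonest inherited urea cycle disorder in people. Otc was at 435 CPM in the AAOT pool and 448 CPM in the control pool, a ratio of 0.970 with a counting interval of 0.940 to 1.001 that includes equality. The difference in log2 ratio of Cps1 minus Otc was 0.30. Their counting intervals did not overlap, but these leave out differences between mice, so whether the genes differ in response was not tested. Nags (chromosome 11, 102145513 to 102149477, plus strand, 7 exons) makes the activator that Cps1 needs and was the least abundant member. Nags was at 61.7 CPM in the AAOT pool, with 1032 reads, and at 67.9 CPM in the control pool, with 1261 reads. It was 1.101-fold lower in the AAOT pool (1.01 to 1.197). Nags is overlapped on the opposite strand by the annotated antisense gene Gm11586, and the labels do not say whether the counting used strand.

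Of the cytosolic members, Asl (chromosome 5, 130011258 to 130029247, minus strand, 16 exons) showed the widest difference between the pools. Asl, the lyase that releases arginine and fumarate, was at 293 CPM in the AAOT pool and 215 CPM in the control pool, 1.37-fold higher (1.31 to 1.43). Of all 7761 genes, 96.3% had a lower ratio than Asl. Asl was the only one of the 6 members at least 1.2-fold higher, a size that 9.33% of all genes reached, and Cps1 lay just under it. At least 1.2-fold lower were 0 of 6 members and 9.46% of all genes, so that 1 of 6 members stood past this size on either side, against 18.8% of all genes. These counts use the ratio after 1 CPM was added to each value. On it, 3 of 6 members, Asl, Cps1 and Arg1, were at least 1.1-fold higher or lower, against 43.5% of all genes, with Nags just under this size, and at least 1.5-fold 0 of 6, against 3.47%. This background moved with the scaling of the libraries. Genes higher in the AAOT pool made up 49.7% of those past 1.2-fold on the authors' scale and 40.5% to 64.2% across the scalings examined. Arg1 (chromosome 10, 24915221 to 24927484, minus strand, 8 exons), the last enzyme of the cycle, was at 631 CPM in the AAOT pool and 542 CPM in the control pool. Arg1 was 1.16-fold higher (1.13 to 1.195). Its mitochondrial relative Arg2, used outside the liver's urea cycle, was at 0.538 CPM in the AAOT pool and 0.485 CPM in the control pool, with 9 reads in each.

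**Figure D2:**
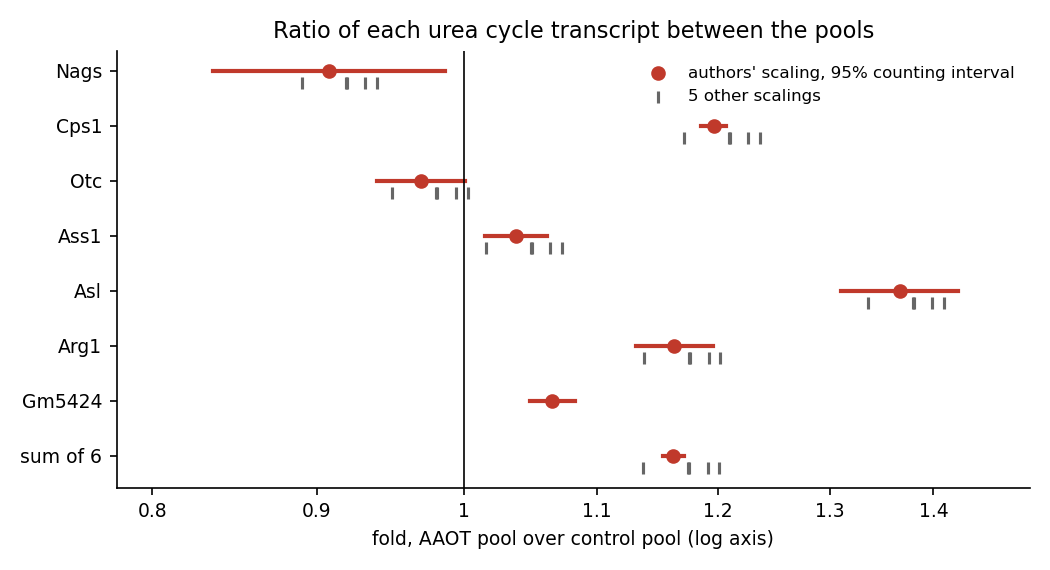
Fold of each transcript, AAOT pool over control pool, on a log axis, with the 95% counting interval on the authors' scale (red) and the folds under 5 other scalings, after 1 CPM was added to each value (grey ticks; not drawn for Gm5424). Asl, Cps1 and Arg1 lie above 1 under all scalings drawn, Ass1 does too by less, Nags lies below 1, and Otc lies on either side of 1.

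Ass1, which joins citrulline and aspartate (chromosome 2, 31470207 to 31520672, plus strand, 16 exons), was at 900.1 CPM in the AAOT pool and 867 CPM in the control pool. The fold was 1.04 (1.02 to 1.06). Its level depends on how reads were shared with a copy. Gm5424, an annotated processed pseudogene of Ass1 (chromosome 10, 62071123 to 62072362, plus strand), was itself listed at 1697 CPM in the AAOT pool and 1592 CPM in the control pool. Gm5424 thus had more CPM than Ass1 in each pool, on an annotated transcript of 1240 bases against 1696 for Ass1. It was singled out after its values were seen. The GENCODE transcript of Gm5424 is 99.5% identical to Ass1, with 6 differing bases and 0 gaps over the 1236 coding bases of Ass1. These are T399C, T429C, A520T, G656C, T1011C and C1143T, with the Ass1 base first, the position counted from 1 at the first base of the Ass1 start codon, and the Gm5424 base last. The longest identical stretch is 398 bases. Only 44.7% of the 50-base stretches of the Ass1 transcript occur in no other gene's transcripts, while for each of the other 5 members this share is 100%.

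The 120 bases of the coding sequence from position 310 to 429 show how nearly alike the copies are. The sequences are from GENCODE M21 on GRCm38, written 5′ to 3′ on the plus strand of both genes, and the capitals mark the 2 bases that differ.
Ass1: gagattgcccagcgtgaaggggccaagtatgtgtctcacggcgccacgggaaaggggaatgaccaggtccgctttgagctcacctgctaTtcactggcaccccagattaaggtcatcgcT
Gm5424: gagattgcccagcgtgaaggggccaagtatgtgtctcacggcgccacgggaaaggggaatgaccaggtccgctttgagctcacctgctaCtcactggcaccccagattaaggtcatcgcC

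A read from this stretch that misses both capitals matches the copies equally well. How reads were divided between Ass1 and Gm5424 was not tested. Gm5424 was 1.07-fold higher in the AAOT pool (1.05 to 1.08), close to the fold of Ass1. Added together, Ass1 and Gm5424 were at 2597 CPM in the AAOT pool and 2459.6 CPM in the control pool, 1.06-fold higher (1.04 to 1.07).

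Per length of transcript, the order of the members in the AAOT pool was Cps1, Ass1, Arg1, Otc, Asl and Nags, and it was the same in the control pool. Cps1 stood at 1044 CPM per kilobase in the AAOT pool and 873 CPM per kilobase in the control pool. Ass1 alone stood at 531 and 511 CPM per kilobase in the AAOT and control pools. With the reads of Gm5424 added it would stand at 1531 and 1450.2 CPM per kilobase, ahead of Cps1 in both pools. Arg1 followed at 427 CPM per kilobase in the AAOT pool and 367 CPM per kilobase in the control pool. Otc was at 188 CPM per kilobase in the AAOT pool and 193 CPM per kilobase in the control pool. Asl was at 122 CPM per kilobase in the AAOT pool and 89.0 CPM per kilobase in the control pool, and Nags closed the order at 30.4 and 33.5 CPM per kilobase. These levels rest on the annotated principal transcript of each gene, and no neighbours in the order could be tested against a spread between mice.

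Among all genes, the members' ratios were spread from the lower part, for Nags, to the upper end, for Asl. The median log2 ratio of the 6 members, taken after 1 CPM was added to each value, was 0.14, against -0.02 for all 7761 genes. A lower ratio than Cps1 was seen in 90.3% of genes, than Arg1 in 88.0%, than Ass1 in 65.9%, than Otc in 43.1% and than Nags in 23.7%. A counting interval clear of equality was found for 5 of 6 members, all but Otc, and for 39.5% of all genes, a share that grows with read number. Among the 244 genes with a mean of at least 500 CPM, the level class of Cps1, Ass1 and Arg1, 21.3% had a ratio at or above that of Cps1. The 3 other genes of this class (of 241 candidates) whose log2 ratio lay nearest to that of the summed members were Cyp2b9, a cytochrome P450, at 1.16-fold, Prdx1, a peroxide-reducing enzyme, at 1.15-fold, and Rn45s, the precursor ribosomal transcript, at 1.18-fold. With 2 libraries this likeness is that of a single ratio.

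**Figure D3:**
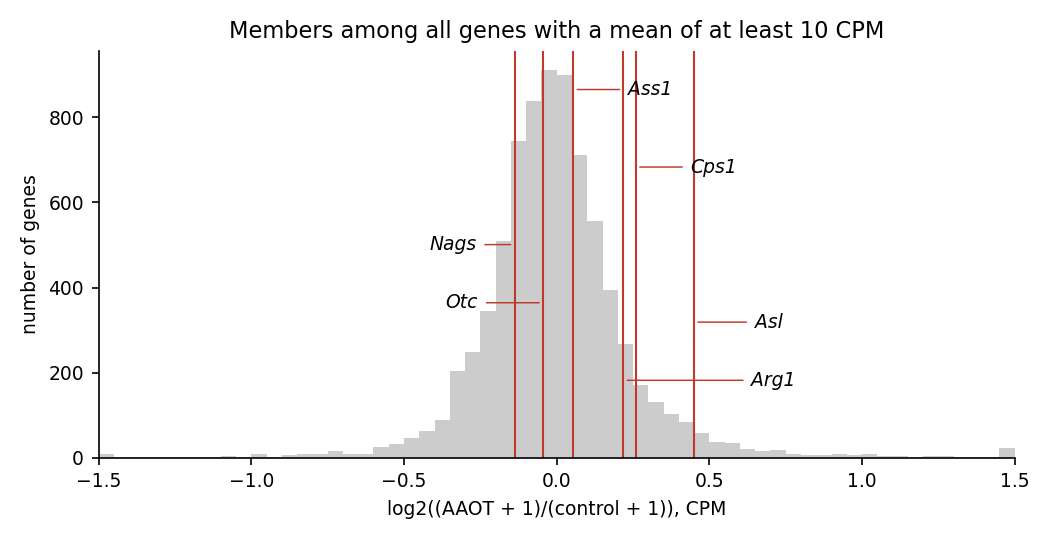
Number of genes by log2 ratio, AAOT pool over control pool, for the 7761 genes with a mean of at least 10 CPM (1 CPM added to each value; the end bars also hold the 23 genes above 1.5 and the 9 genes below -1.5). Red lines mark the 6 members, which lie between -0.14 for Nags and 0.45 for Asl.

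The libraries held 16528533 reads in the AAOT pool and 18801241 reads in the control pool. Rn45s took 4.70% of the reads in the AAOT pool and 3.89% in the control pool. The tissue label was checked against 10 hepatocyte markers, all listed, which summed to 7.40% of reads in the AAOT pool and 8.33% in the control pool. In CPM this sum was 73119 in the AAOT pool and 84371 in the control pool, 1.15-fold lower with AAOT (1.15 to 1.16). That is on the other side of equality from the urea cycle sum. Most of the sum is Alb, at 50829.8 CPM in the AAOT pool and 57688 CPM in the control pool. Of the 10 markers, 8 lay below equality in log2 ratio and 2 above, against 4157 and 3604 of all 7761 genes. Hnf4a, counted among the 8, had a ratio of 0.983 with an interval that includes equality (0.960 to 1.006). Tat was 1.34-fold higher (1.31 to 1.36). Macrophage markers, 9 of 11 listed, summed to 405 CPM in the AAOT pool and 386 CPM in the control pool. Endothelial markers (8 of 8 listed) were at 474 CPM and 464 CPM, and stellate cell markers (6 of 6 listed) at 321 CPM and 355 CPM in the AAOT and control pools. Of the 7 endothelial markers at 10 CPM or more, 6 lay below equality in log2 ratio and 1 above, against 4157 and 3604 of all 7761 genes. Most of the 6 had counting intervals that include equality. So did the sum of the endothelial markers, at 1.02-fold (0.990 to 1.05). Cholangiocyte markers (6 of 6 listed) were at 35.7 CPM in the AAOT pool and 45.1 CPM in the control pool. Lymphocyte (2 of 9 listed), neutrophil (5 of 6) and kidney tubule (1 of 6) markers each summed to under 1.1 CPM in either pool. Of 6 intestinal markers 4 were listed, at 49.6 CPM in the AAOT pool and 59.5 CPM in the control pool and Fabp2 alone was at 39.4 CPM in the AAOT pool and 52.7 CPM in the control pool. Macrophages can express Arg1 and endothelial cells Ass1, and the part of other cell types in the members' levels was not tested. In pooled tissue, a change in the number of cells of a type and a change in RNA per cell cannot be told apart.

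Carriers and channels that move the cycle's substrates were mostly close to equality. Of 17 genes, 15 were listed and 10 reached 10 CPM, of which 2 were at least 1.2-fold higher, against 9.33% of all genes, and 0 at least 1.2-fold lower, against 9.46%. The median log2 ratio was 0.05, against -0.02 for all genes. Slc25a15, which exchanges ornithine and citrulline across the mitochondrial membrane, was at 419 CPM in the AAOT pool and 406 CPM in the control pool. Slc25a13 (citrin), which exports the aspartate that Ass1 uses, was at 307 CPM in the AAOT pool and 287 CPM in the control pool. The cationic amino acid transporter Slc7a2 was 1.25-fold higher (1.21 to 1.28), and the glutamine carrier Slc38a3 was 1.11-fold higher (1.09 to 1.13). Aqp8, a water channel that also passes ammonia, was the only one of these 10 past 2-fold, against 1.2% of all genes. It was at 158 CPM in the AAOT pool and 72.5 CPM in the control pool, 2.17-fold higher (2.03 to 2.32). Aqp9, the hepatocyte channel for glycerol and urea, was 1.101-fold lower (1.07 to 1.13), and the mitochondrial glutamate carrier Slc25a22 was 1.11-fold lower (1.06 to 1.16).

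Of the genes that supply nitrogen and bicarbonate, several aminotransferases were higher, while glutamate dehydrogenase was lower. In this list 16 of 19 genes reached 10 CPM, 6 stood at 1.2-fold higher or more (9.33% of all genes), 1 at 1.2-fold lower or more (9.46%) and 0 past 2-fold (1.2%), with a median log2 ratio of 0.14. Gpt2, a mitochondrial alanine aminotransferase, was at 429 CPM in the AAOT pool and 294 CPM in the control pool, 1.46-fold higher (1.41 to 1.51). Its cytosolic relative Gpt was 1.25-fold higher (1.1997 to 1.31). Got1, the cytosolic aspartate aminotransferase, was 1.35-fold higher (1.29 to 1.41), whereas the mitochondrial form Got2, named after its values were seen, was at 586 CPM in the AAOT pool and 589 CPM in the control pool. The liver glutaminase Gls2, which frees ammonia from glutamine next to Cps1, was 1.24-fold higher (1.196 to 1.29). Glud1, which frees ammonia from glutamate, was the list's gene past 1.2-fold lower, at 1388 CPM in the AAOT pool and 1875 CPM in the control pool, 1.35-fold lower (1.33 to 1.37). Car5a, the mitochondrial carbonic anhydrase that provides bicarbonate to Cps1, was at 77.4 CPM in the AAOT pool and 70.8 CPM in the control pool.

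Genes of arginine and ornithine use and of the linked proline metabolism lay mostly above equality. Of 19 genes 9 reached 10 CPM, with 7 above equality in log2 ratio and 2 below. Of all 7761 genes, 3604 lay above equality and 4157 below. Some of the 7 had counting intervals that include equality. Of these 9, 2 were at least 1.2-fold higher (9.33% of all genes) and 0 at least 1.2-fold lower (9.46%), with a median log2 ratio of 0.15. Prodh, the first enzyme of proline breakdown, was at 129 CPM in the AAOT pool and 85.8 CPM in the control pool, 1.51-fold higher (1.41 to 1.61). Gamt, which completes creatine synthesis, was 1.28-fold higher (1.21 to 1.36), and Aldh4a1, the next enzyme of proline breakdown, was 1.198-fold higher (1.17 to 1.23). Odc1, which makes polyamines from ornithine, was at 49.7 CPM in the AAOT pool and 44.4 CPM in the control pool. Oat, which turns ornithine towards glutamate, was 1.16-fold lower (1.12 to 1.204).

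Ammonia that escapes the urea cycle is taken up by pericentral hepatocytes through glutamine synthetase, Glul. Glul was at 896 CPM in the AAOT pool and 1171 CPM in the control pool, 1.31-fold lower (1.28 to 1.34). In its small list, 4 of 5 genes were listed and reached 10 CPM, with 1 at 1.2-fold higher or more, against 9.33% of all genes, and 2 at 1.2-fold lower or more, against 9.46%. The ammonium transporter Rhbg was measured at 13.7 CPM in the AAOT pool and 11.1 CPM in the control pool, and the amino acid transporter Slc1a4 was 1.44-fold lower (1.16 to 1.79). The glutamate transporter Slc1a2 was 1.13-fold lower (1.06 to 1.198).

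**Figure D4:**
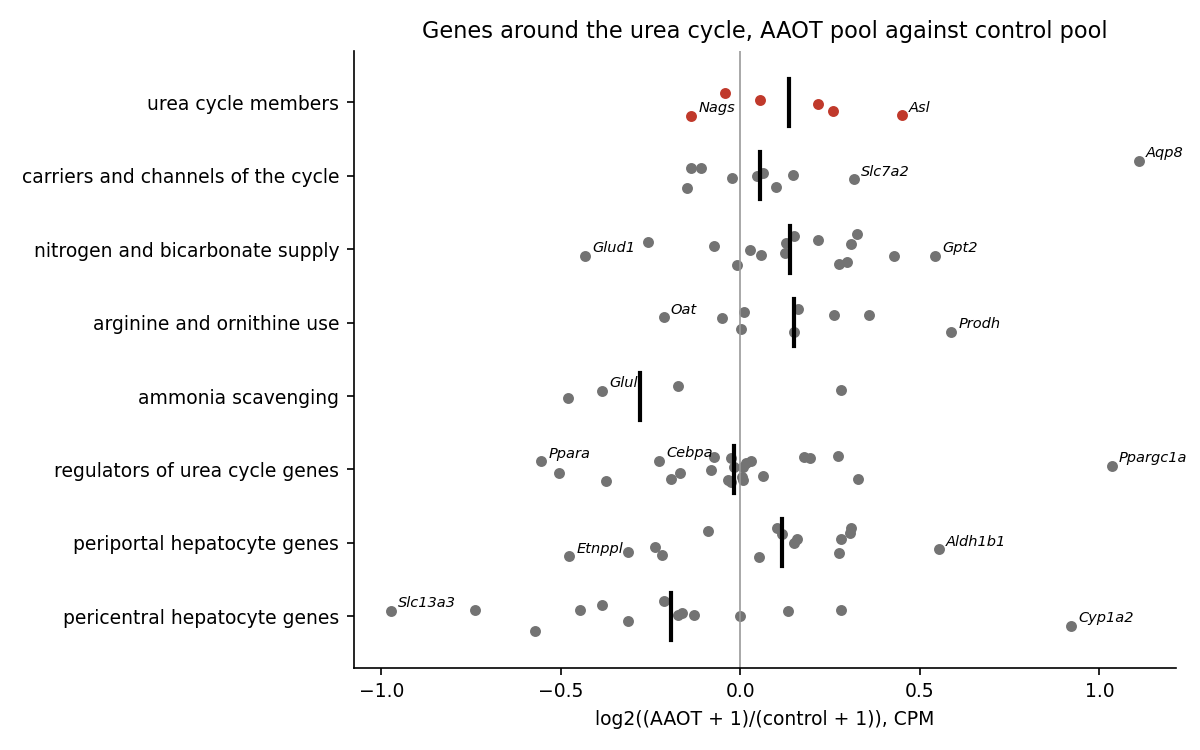
Log2 ratio, AAOT pool over control pool (1 CPM added to each value) for members of the gene lists with a mean of at least 10 CPM, 1 point per gene and a black bar at each list's median. The urea cycle members (red) have a median of 0.14, the nitrogen supply genes 0.14, the periportal genes 0.12 and the pericentral genes -0.19, and the lists share some genes.

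Regulators of urea cycle genes were centred on equality, with a median log2 ratio of -0.02 over 23 genes, equal to that of all genes at this rounding. Of the 23, 3 were at least 1.2-fold higher and 3 at least 1.2-fold lower, against 9.33% and 9.46% of all genes. Hnf4a, a master regulator of hepatocyte genes including Otc, was at 771 CPM in the AAOT pool and 784 CPM in the control pool. Cebpa, which mice need for the full expression of several cycle enzymes, was at 352 CPM in the AAOT pool and 412 CPM in the control pool, and Cebpb was at 79.1 CPM and 83.3 CPM in the AAOT and control pools. The glucagon receptor Gcgr was at 196 CPM in the AAOT pool and 194 CPM in the control pool. The glucocorticoid receptor Nr3c1 was at 166 CPM in the AAOT pool and 189.6 CPM in the control pool. Ppargc1a, a coactivator of the fasting response, was the only one of the 23 regulators past 2-fold, against 1.2% of all genes. It was at 17.8 CPM in the AAOT pool and 8.19 CPM in the control pool. Its fold of 2.18 has a counting interval of 1.78 to 2.66, which reaches below 2. Ppara, the fatty acid receptor, was 1.47-fold lower (1.43 to 1.52), and the hepatic factor Foxa2 was 1.31-fold lower (1.14 to 1.52). Foxo3 was 1.26-fold higher (1.14 to 1.402).

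Because the urea cycle is strongest near the portal vein, its genes were set beside zonation markers. Of 15 periportal genes at 10 CPM or more, 5 were at least 1.2-fold higher and 2 at least 1.2-fold lower, against 9.33% and 9.46% of all genes, with a median log2 ratio of 0.12. Aldh1b1, a mitochondrial aldehyde dehydrogenase, was 1.47-fold higher (1.38 to 1.57), while Cyp2f2, a standard periportal marker, was at 1271 CPM in the AAOT pool and 1183 CPM in the control pool. Cdh1, an adhesion gene, was 1.24-fold higher (1.11 to 1.39). Etnppl was 1.401-fold lower (1.27 to 1.54) and the glucose-6-phosphatase gene G6pc 1.24-fold lower (1.21 to 1.27). Of 14 pericentral genes, 2 were at least 1.2-fold higher and 6 at least 1.2-fold lower, against the same 9.33% and 9.46%, with a median of -0.19. The higher genes were Rhbg and Cyp1a2, which was at 1.89-fold (1.84 to 1.95). The lower genes included Slc13a3 at 2.001-fold lower, the Wnt targets Lgr5 at 1.75-fold lower and Axin2 at 1.52-fold lower, and Cyp2e1 at 1.36-fold lower, besides Glul.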

How the data were processed

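The deposited table holds CPM, read counts as scaled by the authors, for 15526 gene symbols. The column totals differ, so the scale is not the read total alone. The table's 2 columns were matched to the pools through the codes in their titles. Trimmomatic 0.38, Bowtie2, RSEM and edgeR stand in the submitters' processing notes with the build mm10 (GRCm38), without their roles, and no annotation is named. Per the labels' protocols, 200 ng of total RNA went into rRNA-depleted, directional libraries. Every CPM was a whole multiple of a step particular to its column (100% within a relative tolerance of 1e-06), which gave back the reads.

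With 1 library per group, a count test has no spread to work with, so no model was fitted and no p-value computed. Folds are plain ratios of CPM, with an exact 95% Clopper-Pearson interval on the reads of both pools. Genes with a mean of at least 10 CPM were counted by log2((AAOT + 1)/(control + 1)), which understates differences of low genes. The members and lists were chosen with earlier results of these data known. The text names all members, up to 5 genes of each list farthest from equality, genes fixed by role and the 3 with the nearest ratio. A gene that this rule takes is not reported here. Transcript lengths, positions and shared 50-base stretches come from GENCODE M21. The steps were tried on simulated reads that varied by counting error only, so this trial cannot speak to differences between mice or to the scaling. The tools were Biopython 1.88, scipy 1.17.1, pandas 2.3.3, numpy 2.4.6, matplotlib 3.10.9 and Python 3.11.15.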

Additional observations from a re-analysis of the deposited data

How the results depend on the processing

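No paired analysis was possible because each group has 1 library. No member passed 2-fold (0 of 6) under any of the 5 other scalings, added constants of 0.1 and 5 CPM, floors of 1 and 50 CPM or none, nor was any past 1.5-fold or 4-fold. The count past 1.2-fold, 1 on the authors' scale, was 2 with equal column totals, without the 20 most abundant genes and with the median of ratios, and 3 without Rn45s. Past 1.2-fold higher and lower stood 724 and 734 of 7761 genes on the authors' scale. With equal totals these were 864 and 567 of 7761, and without the 20 most abundant genes 891 and 759 of 8443. With the median of ratios they were 786 and 641 of 7760, and without Rn45s 961 and 536 of 7890. With the upper quartile more genes were lower than higher, at 620 higher and 910 lower of 7761, and the member count stayed at 1. On the authors' scale the member count was 3 at a size of 1.1-fold (43.5% of all genes) and 0 at 1.5-fold (3.47%). The log2 ratio of the summed members, 0.22, was 0.25 with equal totals, 0.26 without Rn45s, 0.23 without the 20 most abundant genes, 0.19 with the upper quartile and 0.23 with the median of ratios. It was 0.19 with Gm5424 added and 0.12 without Cps1, both chosen after the values were seen. The members' median, 0.14, lay between 0.105 with the upper quartile and 0.18 without Rn45s. Across scalings and constants Otc ranged from -0.07 to 0.004 and so changed sign, Nags from -0.17 to -0.09, Ass1 from 0.02 to 0.10, Arg1 from 0.19 to 0.27, Cps1 from 0.23 to 0.31 and Asl from 0.42 to 0.50. These scalings move ratios by up to 1.03-fold, and differences between mice are not measured. Under each of the 5 other scalings, the ratios of the summed members and of Cps1 fell outside their counting intervals. Those intervals thus do not cover the choice of scaling.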

Other observations

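Carbamoyl phosphate and fumarate are also handled outside the urea cycle. Cad, whose product makes carbamoyl phosphate for pyrimidine synthesis in the cytosol, was at 23.7 CPM in the AAOT pool and 24.4 CPM in the control pool, a ratio of 0.968 (95% counting interval 0.844 to 1.11). Umps, which ends the same pathway, was at 41.9 CPM in the AAOT pool and 31.9 CPM in the control pool, 1.31-fold higher (1.18 to 1.47). Adsl, the fumarate-releasing relative of Asl in purine synthesis, was at 11.7 CPM in the AAOT pool and 14.8 CPM in the control pool, 1.26-fold lower (1.04 to 1.52), whereas Asl was higher. Adss, the enzyme before Adsl, was at 33.5 CPM in the AAOT pool and 31.3 CPM in the control pool. Dhodh was below the floor, at 6.63 CPM in the AAOT pool and 7.75 CPM in the control pool. These genes were chosen after their values were seen, and the differences have no replicate check.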
